A study of Homo sapiens with 12 samples.

Results

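The genes described here encode RNA polymerase I and the factors that turn its transcript into ribosomal subunits. The set held 58 genes, chosen by name from the 20036 genes of the table through current or older symbols, and each of the 58 was found. It was divided by role into 7 genes of RNA polymerase I and its initiation factors, 7 nucleolar organisers and regulators, 7 proteins of small nucleolar ribonucleoproteins (snoRNPs), 16 factors of the small-subunit processome, 5 late small-subunit factors and 16 large-subunit factors. After a filter on low values 57 were tested, and NOP2, a methyltransferase of large-subunit RNA, was too low to be tested in any comparison.

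RNA came from MV-4-11, an acute myeloid leukaemia line with an activated FLT3 receptor, labelled as bone marrow with the genotype WT. Of the 4 groups of 3 libraries, 1 received HPA-12 together with crenolanib (combination), 1 crenolanib, which inhibits the FLT3 kinase, 1 the (1R,3S) form of HPA-12, which inhibits the ceramide carrier CERT, and 1 the solvent DMSO. All groups were the same line, grown in medium with fetal bovine serum and antibiotics. Treatment lasted 48 h per the labels, which state no time for DMSO and no doses. Since nothing tells whether a group's libraries came from separate cultures, p-values cover only the variation among these libraries, which may be technical.

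The combination libraries stood apart before any gene was compared. Depth, estimated roughly from the lowest values, was 4.40 to 5.07 M reads in combination libraries, 10.1 to 10.2 with crenolanib, 12.1 to 12.8 with HPA-12 and 13.6 to 15.98 with DMSO. The 13 mitochondrially encoded genes took a mean of 62.2% of all FPKM (fragments scaled by gene length and library size) in the combination group, 36.0% with crenolanib, 21.6% with HPA-12 and 19.8% with DMSO. The 10 myeloid markers summed to a mean of 776 FPKM with the combination, 1131 with crenolanib, 741 with HPA-12 and 1331 with DMSO, and none was at 0 in any library. Against DMSO, 7 of them fell and 1 rose with the combination, 5 fell and 3 rose with crenolanib, and 4 fell and 4 rose with HPA-12. The 10 erythroid markers summed to a mean of 25926 FPKM with the combination, 4280 with crenolanib, 209 with HPA-12 and 76.0 with DMSO. Against DMSO, 10 of the 10 rose with the combination, 9 with crenolanib and 5 with HPA-12. Over all 11149 genes tested, 56.5% fell and 14.8% rose with the combination. The shares were 28.9% and 27.4% with crenolanib, and 23.0% and 27.7% with HPA-12. Summed over 8 markers each, lymphoid markers stayed at 2.37 to 7.93 FPKM and stromal and epithelial markers at 3.2 to 21.1 FPKM over the 12 libraries, with CD79B at 0 in 8 and EPCAM at 0 in 11 of them. The part of these differences in the results below was not tested.

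Ribosome production starts in the nucleolus, where UBTF and the SL1 complex mark ribosomal DNA and RRN3 brings RNA polymerase I to it. The long precursor RNA is modified by snoRNPs, folded and cut by the small-subunit processome, and split into a small-subunit and a large-subunit path, each with its own assembly factors. The demand of growing cells for ribosomes is high, and MYC, a transcription factor that binds the E-box CACGTG as a dimer with MAX, is a known activator of many of these genes in blood cells and elsewhere.

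Promoter windows of 300 bases (250 before to 50 after the start, RefSeq on GRCh38.p14) were matched to 50 of the 58 genes. CACGTG, which reads the same on both strands, occurred in 18 of these 50 windows (36.0%), against 945 of 9058 windows of genes tested (10.4%) and 2548 of 35116 windows in all (7.26%). By role, it was in 7 of 14 windows of the small-subunit processome, 3 of 5 of late small-subunit factors, 5 of 13 of large-subunit factors, 2 of 6 of snoRNP proteins, 1 of 6 of nucleolar regulators and 0 of 6 of RNA polymerase I genes. Of the 20 motifs in windows of the set, 13 (65.0%) began after the start, against 104 of 1077 motifs (9.66%) in windows of genes tested. It was held by 8 of 24 genes whose HPA-12 change lay below the median of the set and by 9 of 25 of the others. A match describes the letters only, and nothing is drawn from it about binding. Windows are printed 5′ to 3′ for 5 genes among the most changed or most abundant of the set that hold the motif, with CACGTG in capitals. It starts at base 28 after the start in MYBBP1A (chr17:4555335-4555634, minus strand), 15 in MRTO4 (chr1:19251555-19251854, plus strand), 29 in BYSL (chr6:41921249-41921548, plus strand), 16 in NOP14 (chr4:2963357-2963656, minus strand) and 7 in FBL (chr19:39846330-39846629, minus strand).
MYBBP1A: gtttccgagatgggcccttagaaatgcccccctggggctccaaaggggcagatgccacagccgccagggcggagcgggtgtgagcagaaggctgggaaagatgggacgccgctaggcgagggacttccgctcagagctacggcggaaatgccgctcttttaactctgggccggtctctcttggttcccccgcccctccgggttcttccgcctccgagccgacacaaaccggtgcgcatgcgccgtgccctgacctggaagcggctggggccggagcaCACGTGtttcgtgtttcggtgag
MRTO4: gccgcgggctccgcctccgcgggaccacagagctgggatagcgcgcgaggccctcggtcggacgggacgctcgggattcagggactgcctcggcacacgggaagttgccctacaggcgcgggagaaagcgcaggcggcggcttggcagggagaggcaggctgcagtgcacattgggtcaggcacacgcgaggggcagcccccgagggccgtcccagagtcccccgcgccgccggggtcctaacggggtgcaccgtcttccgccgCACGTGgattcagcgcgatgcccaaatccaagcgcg
BYSL: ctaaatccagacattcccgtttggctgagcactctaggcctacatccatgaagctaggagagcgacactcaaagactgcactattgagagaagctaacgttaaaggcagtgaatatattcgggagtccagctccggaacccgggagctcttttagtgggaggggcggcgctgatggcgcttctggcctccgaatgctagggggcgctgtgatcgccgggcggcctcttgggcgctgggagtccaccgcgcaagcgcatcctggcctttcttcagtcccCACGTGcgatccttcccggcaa
NOP14: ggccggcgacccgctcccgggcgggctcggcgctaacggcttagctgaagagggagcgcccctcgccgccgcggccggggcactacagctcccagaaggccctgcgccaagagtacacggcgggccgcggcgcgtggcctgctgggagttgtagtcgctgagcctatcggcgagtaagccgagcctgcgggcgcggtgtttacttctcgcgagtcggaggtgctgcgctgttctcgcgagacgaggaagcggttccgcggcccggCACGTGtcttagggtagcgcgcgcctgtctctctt
FBL: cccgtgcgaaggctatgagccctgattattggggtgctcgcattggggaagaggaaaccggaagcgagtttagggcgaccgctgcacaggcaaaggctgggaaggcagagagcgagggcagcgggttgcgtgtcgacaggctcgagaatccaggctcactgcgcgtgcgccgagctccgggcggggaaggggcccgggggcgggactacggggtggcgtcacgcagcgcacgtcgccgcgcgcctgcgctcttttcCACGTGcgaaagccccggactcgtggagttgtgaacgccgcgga

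HPA-12 lowered nearly the whole set. Of 57 genes tested against DMSO, 53 fell and 0 rose with HPA-12 alone, where 23.0% of all 11149 genes fell and 27.7% rose (limma, adjusted p below 0.05). Their median log2 fold change was -1.72, against 0.09 over all genes, and 56 of the 57 lay below the all-gene median. As a share of FPKM from genes that are not mitochondrial, the 58 genes held 0.261 ± 0.00241% with HPA-12 and 0.832 ± 0.00964% with DMSO (SD, n = 3 each). In bulk RNA, fewer cells of a type and less RNA per cell cannot be told apart.

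Fewer genes of the set fell with crenolanib. Against the same DMSO libraries, 41 fell and 2 rose, where 28.9% of all genes fell and 27.4% rose, and the median change was -0.87 against -0.04 over all genes. Their share of FPKM was 0.483 ± 0.00559% with crenolanib (SD, n = 3). With the combination 51 fell and 1 rose, but 56.5% of all genes fell and 14.8% rose, and the all-gene median was itself -0.62 beside -1.47 for the set. Their share in that group was 0.360 ± 0.0215% (SD, n = 3). The order depends on the mitochondrial genes, since as a share of all FPKM the set held 0.136 ± 0.00796% with the combination, 0.309 ± 0.00405% with crenolanib, 0.204 ± 0.00268% with HPA-12 and 0.667 ± 0.00706% with DMSO (SD, n = 3 each).

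Every comparison with the combination depended on how libraries were scaled. Median-ratio scaling of the FPKM gave combination against DMSO an all-gene median of -0.12 in place of -0.62, and a median of -0.87 in place of -1.47 for the set. Under it 38 genes of the set fell and 4 rose, where 33.8% of all genes fell and 27.2% rose, and NPM1, which fell as deposited, was 1 of the 4. Under upper-quartile scaling the all-gene median was -0.33, and 46 fell and 3 rose, where 43.6% of all genes fell and 21.1% rose. With HPA-12, 52 genes fell under either scaling, all among the 53, where 22.2% (median-ratio) and 20.5% (upper-quartile) of all genes fell. Rescaling without the mitochondrial genes raised the all-gene median to 0.21 for HPA-12 and to 0.07 for crenolanib, with 50 and 34 genes of the set lower, beside 18.7% and 21.5% of all genes. Leaving the 3 combination libraries out of the fit gave 55 lowered and 1 raised with HPA-12, and 47 lowered and 4 raised with crenolanib, including all 53 and 41 that fell in the fit of 12 libraries. In that smaller fit 32.3% of all genes fell and 40.7% rose with HPA-12, and 40.3% fell and 37% rose with crenolanib.

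**Figure D1:**
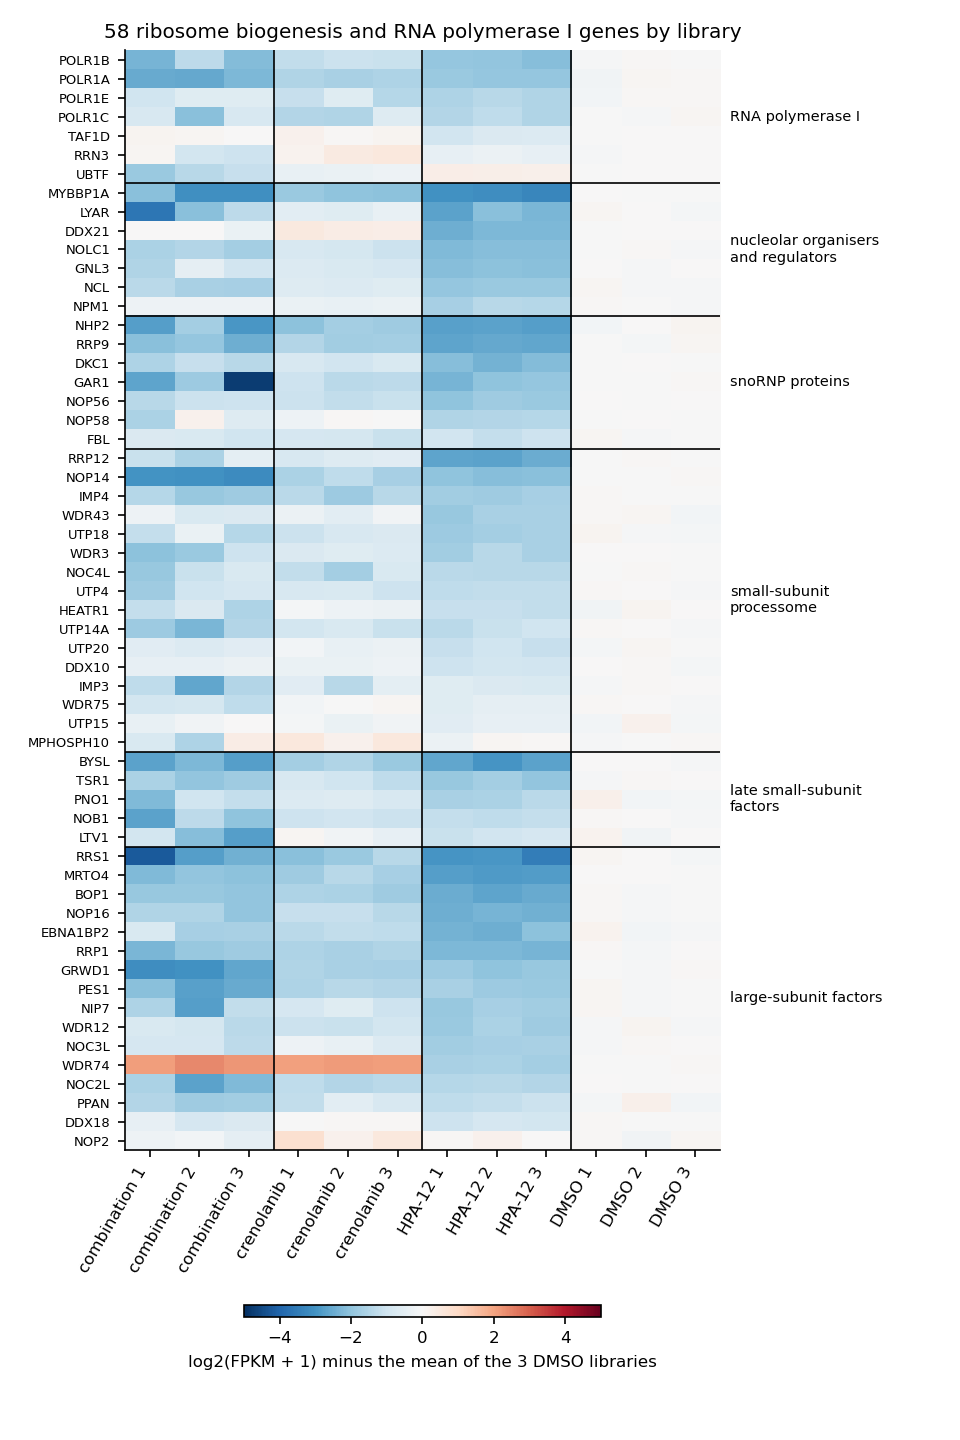
Each row is 1 of the 58 genes and each column 1 of 12 libraries; colour gives log2(FPKM + 1) minus the mean of the 3 DMSO libraries, with roles named at the right and genes sorted within a role by their HPA-12 change. The HPA-12 columns are blue in nearly every row (53 of 57 tested genes fell), the crenolanib columns are paler, WDR74 is red with crenolanib and the combination, and the combination columns differ most among themselves; their values are as deposited and move up under other scalings.

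**Figure D2:**
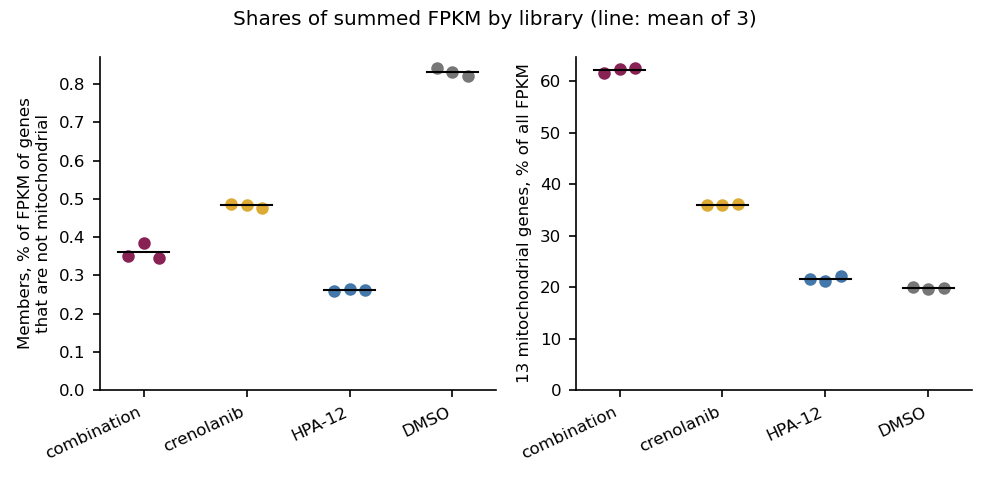
The left panel gives the summed FPKM of the 58 genes as a percent of FPKM from genes that are not mitochondrial, and the right panel the 13 mitochondrially encoded genes as a percent of all FPKM, with 1 point per library and a line at the mean of 3. The set's share is lowest in the 3 HPA-12 libraries and highest in the 3 DMSO libraries with no overlap between any groups, while the mitochondrial share is highest in the combination libraries; as a percent of all FPKM, mitochondrial genes included, the set is lowest in the combination.

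Among the RNA polymerase I genes, the 2 largest subunits fell with every treatment, while the initiation factors RRN3 and UBTF did not pass with either agent alone. POLR1A (ENSG00000068654), the largest subunit, had 2.35, 2.26 and 3.01 FPKM in the combination libraries, 5.79, 5.27 and 5.53 with crenolanib, 4.21, 4.06 and 3.94 with HPA-12 and 16.1, 19.6 and 18.7 with DMSO. No treated library reached the lowest DMSO library, and the log2 change was -2.43 ± 0.12 with the combination, -1.55 ± 0.12 with crenolanib and -1.91 ± 0.12 with HPA-12 (SE; adjusted p = 5.65e-09, 8.26e-07 and 1.59e-07). POLR1B (ENSG00000125630), the second-largest subunit, had 1.47, 4.03 and 1.72 FPKM with the combination, 4.30, 4.81 and 4.73 with crenolanib, 2.20, 2.12 and 1.83 with HPA-12 and 10.9, 12 and 11.2 with DMSO. Its changes were -1.94 ± 0.22 with the combination, -1.14 ± 0.22 with crenolanib and -2.02 ± 0.22 with HPA-12, and all 3 passed, although combination library 2 stood well above the other two. POLR1C, shared with RNA polymerase III, and POLR1E fell as well in all 3 comparisons, to means of 1.68 and 7.74 FPKM with HPA-12 against 6.14 and 23.4 with DMSO.

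UBTF (ENSG00000108312), which binds and opens ribosomal DNA, was the only gene of the set with its highest mean in HPA-12. It had 10.2, 14.4 and 17.3 FPKM with the combination, 29.8, 31.4 and 32.3 with crenolanib, 49.2, 47.9 and 47.4 with HPA-12 and 38.3, 39.6 and 39.7 with DMSO. The 4 groups did not overlap, with HPA-12 above DMSO, and crenolanib and the combination below it. In the fit of 12 libraries UBTF fell with the combination (-1.46 ± 0.14, adjusted p = 1.76e-06; -0.80 under median-ratio scaling), while the values for HPA-12 (0.29 ± 0.14, adjusted p = 0.101) and crenolanib (-0.32 ± 0.14, adjusted p = 0.065) did not pass. Fitted without the 3 combination libraries, the crenolanib (adjusted p = 4.4e-05) and HPA-12 (adjusted p = 0.000128) differences of the same size both passed, and both also did without combination library 1 or library 3 alone.

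RRN3 (ENSG00000085721), the factor that carries the polymerase to its promoter, had 14.0, 6.48 and 5.88 FPKM with the combination, 14.7, 18.3 and 19.1 with crenolanib, 9.56, 10.4 and 9.47 with HPA-12 and 12.6, 13.2 and 13.2 with DMSO. Crenolanib libraries all lay above DMSO and HPA-12 libraries all below, and combination library 1 lay above DMSO with the other two below. Neither single-agent difference passed over 12 libraries (crenolanib 0.38 ± 0.23, adjusted p = 0.184; HPA-12 -0.37 ± 0.23, adjusted p = 0.21). Both passed without the 3 combination libraries (adjusted p = 0.00151 and 0.0021) and without combination library 1 alone (adjusted p = 0.00608 and 0.00815). The fall with the combination (-0.61 ± 0.23, adjusted p = 0.0349) did not pass under any of the 3 rescalings, and median-ratio scaling turned it to 0.022. It was -0.96 without combination library 1, and did not pass without combination library 2 (-0.46) or 3 (-0.40) or without any 1 DMSO library (-0.60 to -0.63). RRN3 has 3 pseudogenes named after it in GENCODE 29, so its level is uncertain where reads were shared. TAF1D, a subunit of SL1, fell with HPA-12 to 3.75 ± 0.436 FPKM, and had 7.71 ± 0.315 with the combination and 7.97 ± 0.451 with crenolanib against 7.16 ± 0.106 with DMSO, neither of which passed. In GENCODE 29, 7 snoRNA genes and 1 microRNA gene overlap TAF1D exons on the same strand, so its level is uncertain.

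**Figure D3:**
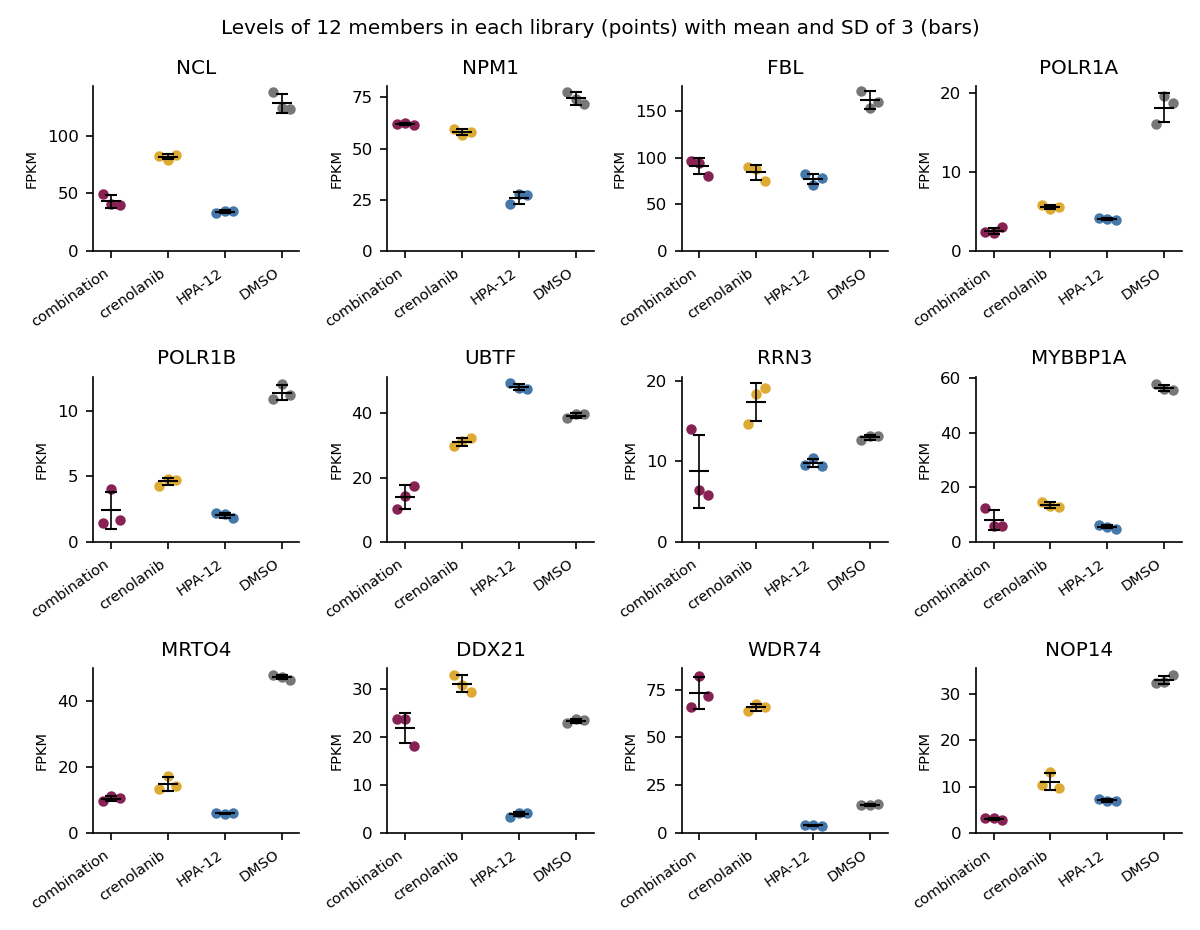
FPKM of 12 genes of the set in each library (points, 3 per group) with the mean and SD of 3 (bars) in the combination, crenolanib, HPA-12 and DMSO groups, on linear axes from 0. NCL, POLR1A, POLR1B, MYBBP1A, MRTO4 and NOP14 are lower in each treated group than in DMSO, UBTF is highest with HPA-12, and DDX21 and WDR74 are low with HPA-12 and above DMSO with crenolanib; NPM1 with the combination is below DMSO as deposited and above it under median-ratio scaling.

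The nucleolar organisers and regulators all fell with HPA-12, 7 of 7 with a median of -2.16, beside 23.0% of all genes. MYBBP1A (ENSG00000132382), a nucleolar partner of RNA polymerase I and of p53, had the largest fall of the set on the log2(FPKM + 1) scale with either agent alone. RRS1 was close to it with HPA-12 (-3.10 ± 0.37). MYBBP1A had 12.4, 5.89 and 5.80 FPKM with the combination, 14.8, 13.1 and 12.8 with crenolanib, 6.10, 5.67 and 4.96 with HPA-12 and 57.8, 55.9 and 55.7 with DMSO. Every treated library was far below DMSO, and combination library 1 was near the crenolanib libraries. The changes were -2.75 ± 0.21 with the combination, -1.98 ± 0.21 with crenolanib and -3.13 ± 0.21 with HPA-12 (adjusted p = 2.77e-07, 1.16e-05 and 3.13e-07).

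NCL (nucleolin, ENSG00000115053), among the most abundant nucleolar proteins, had 49.9, 40.5 and 39.7 FPKM with the combination, 82.3, 79.3 and 83.5 with crenolanib, 32.9, 35 and 34.4 with HPA-12 and 138, 124 and 124 with DMSO. The 4 groups did not overlap, and the changes were -1.55 ± 0.08 with the combination, -0.64 ± 0.08 with crenolanib and -1.88 ± 0.08 with HPA-12 (adjusted p at most 5.74e-05; -0.87 for the combination under median-ratio scaling). NPM1 (nucleophosmin, ENSG00000181163), a ribosome export factor often mutated in this leukaemia, had 62.0, 62.5 and 61.4 FPKM with the combination, 59.7, 56.7 and 58.3 with crenolanib, 22.8, 27.7 and 27.3 with HPA-12 and 77.7, 74.0 and 71.7 with DMSO. The HPA-12 libraries were far below all others (-1.49 ± 0.07, adjusted p = 2.45e-08), and the crenolanib libraries were below DMSO by less (-0.35 ± 0.07, adjusted p = 0.00194). For the combination the change was -0.26 as deposited (adjusted p = 0.00801) and 0.43 under median-ratio scaling (adjusted p = 0.000196), so its direction depended on the scaling. It did not pass with weights per group either (adjusted p = 0.198). GENCODE 29 names 45 pseudogenes after NPM1, and shared reads make its level uncertain.

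DDX21 (ENSG00000165732), an RNA helicase that senses both RNA polymerase I and II transcription, split the agents. It had 23.6, 23.6 and 18.1 FPKM with the combination, 32.8, 30.8 and 29.3 with crenolanib, 3.42, 4.17 and 4.10 with HPA-12 and 22.8, 23.6 and 23.5 with DMSO. Combination libraries overlapped DMSO, crenolanib libraries lay above it and HPA-12 libraries far below. DDX21 fell with HPA-12 to a mean of 3.90 FPKM, against 23.3 with DMSO, rose with crenolanib (0.39 ± 0.11, adjusted p = 0.0101), and gave -0.10 ± 0.11, adjusted p = 0.42 with the combination. NOLC1, a snoRNP chaperone, and GNL3 (nucleostemin) fell in all 3 comparisons and were lowest with HPA-12, at 14.9 ± 0.377 and 9.38 ± 0.383 FPKM against 70.1 ± 2.82 and 43.1 ± 1.22 with DMSO. LYAR, a zinc-finger protein of nucleoli, had 0.592, 3.51 and 6.79 FPKM with the combination, from 6 to 72 estimated reads, and 12.7 ± 1.07 with crenolanib, 2.80 ± 0.758 with HPA-12 and 18.3 ± 1.29 with DMSO. It fell with the combination and HPA-12 and did not pass with crenolanib.

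Of the 7 snoRNP proteins, 6 fell with the combination, 5 with crenolanib and all 7 with HPA-12, beside 56.5%, 28.9% and 23.0% of all genes. NOP58 and GAR1 did not pass with crenolanib. FBL (fibrillarin, ENSG00000105202), the methyltransferase of box C/D snoRNPs and the most abundant gene of the set in every group, had 96.2, 94.7 and 80.8 FPKM with the combination, 89.8, 87.7 and 75 with crenolanib, 82.0, 70.8 and 78.6 with HPA-12 and 172, 153 and 159.8 with DMSO. The 3 treated groups overlapped one another and all lay below DMSO, with changes of -0.83 ± 0.09 with the combination, -0.93 ± 0.09 with crenolanib and -1.06 ± 0.09 with HPA-12 (adjusted p at most 6.11e-06). The combination value did not pass under median-ratio scaling (-0.14). NOP56 and NOP58, the core partners of fibrillarin, were at 12.4 and 5.69 FPKM with HPA-12 against 48.0 and 17.4 with DMSO, and NOP58 had 16.7 FPKM with crenolanib. In GENCODE 29, 5 snoRNA genes and 1 microRNA gene overlap exons of NOP56 transcripts on the same strand, so its level is uncertain.

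In box H/ACA snoRNPs, which guide pseudouridylation, NHP2 (ENSG00000145912) had 14.2, 30.5 and 12.7 FPKM with the combination, 23.5, 30.3 and 28.8 with crenolanib, 14.8, 15.2 and 14.3 with HPA-12 and 91.5, 104 and 111 with DMSO. All treated libraries lay below every DMSO library, with -1.86 ± 0.24, adjusted p = 6e-05 for crenolanib and -2.70 ± 0.24, adjusted p = 3.41e-06 for HPA-12. GAR1 (ENSG00000109534) had 3.36, 6.53 and 0 FPKM with the combination, 10.4 ± 1.36 with crenolanib, 5.33 ± 0.898 with HPA-12 and 25.7 ± 0.903 with DMSO. Its combination change (-3.06 ± 0.53, adjusted p = 0.000257) includes 1 library listed at 0, and its standard error was several times that of FBL. DKC1, the pseudouridine synthase, fell in all 3 comparisons and was at 2.75 ± 0.331 FPKM with HPA-12 against 16.5 ± 0.237 with DMSO. RRP9, which belongs to the U3 snoRNP, was at 8.29 ± 0.189 FPKM with HPA-12 against 55.4 ± 4.27 with DMSO.

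Of the factors of the small-subunit processome, 14 of 16 fell with HPA-12 (median -1.21), 10 with crenolanib (median -0.67) and 14 with the combination (median -1.11). Over all genes 23.0%, 28.9% and 56.5% fell in these comparisons, with medians of 0.09, -0.04 and -0.62. The 16 factors summed to 83.0 ± 6.09 FPKM with the combination, 119.8 ± 6.45 with crenolanib, 73.2 ± 3.21 with HPA-12 and 222 ± 5.25 with DMSO (SD, n = 3 each). NOP14 (ENSG00000087269), which helps to assemble the small-subunit precursor, had 3.26, 3.21 and 2.87 FPKM with the combination, 10.4, 13.1 and 9.67 with crenolanib, 7.39, 6.85 and 7.01 with HPA-12 and 32.4, 32.6 and 34.1 with DMSO. The groups did not overlap, and the combination libraries were lowest. As deposited, NOP14 was 1 of 16 genes of the set with their lowest mean in the combination, where its change was -3.05 ± 0.11, adjusted p = 5.05e-10.

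RRP12, needed for export of the precursor, had 4.82, 3.28 and 8.10 FPKM with the combination, 6.31, 7.15 and 7.52 with crenolanib, 1.04, 0.992 and 1.27 with HPA-12 and 11.4, 12.3 and 11.4 with DMSO, so that the HPA-12 libraries lay below all others. IMP3, IMP4 and MPHOSPH10 form a complex on the U3 snoRNA, and IMP4 fell in all 3 comparisons, to 10.1 FPKM with HPA-12 against 35.6 with DMSO. IMP3 was the only gene that fell with crenolanib and did not pass with HPA-12, at 2.57 ± 1.12 FPKM with crenolanib and 2.72 ± 0.215 with HPA-12 against 5.05 ± 0.224 with DMSO, with 1 combination library listed at 0. Its HPA-12 libraries (2.95, 2.68 and 2.52 FPKM) all lay below its DMSO libraries (4.81, 5.25 and 5.08). The 2 agents' means were close, so the unlike calls show no difference between the agents. MPHOSPH10 had 3.09 ± 2.73, 6.55 ± 0.890, 4.45 ± 0.753 and 4.56 ± 0.212 FPKM in the combination, crenolanib, HPA-12 and DMSO groups, and passed in none of the comparisons with DMSO. UTP15 and WDR75, both of the UTP-A subcomplex, fell with HPA-12, at 1.93 ± 0.171 and 6.33 ± 0.410 FPKM against 3.04 ± 0.559 and 9.35 ± 0.385 with DMSO, and did not pass with crenolanib.

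The 5 late small-subunit factors fell with HPA-12 and with the combination, and 4 of 5 with crenolanib. Over all genes 23.0% fell with HPA-12, 56.5% with the combination and 28.9% with crenolanib. BYSL (bystin, ENSG00000112578) had 4.93, 6.92 and 4.60 FPKM with the combination, 10.8, 12.4 and 9.50 with crenolanib, 5.27, 3.94 and 4.85 with HPA-12 and 37.6, 37.0 and 35.7 with DMSO, with no treated library near DMSO. Its changes were -1.67 ± 0.15, adjusted p = 2.53e-06 with crenolanib and -2.74 ± 0.15, adjusted p = 4.7e-08 with HPA-12. NOB1, the endonuclease that makes the mature end of 18S RNA, had 4.44, 13 and 7.66 FPKM with the combination, 16.1, 17.1 and 15.8 with crenolanib, 14.2, 13.5 and 14.1 with HPA-12 and 35.2, 34.1 and 32.6 with DMSO. All 9 treated libraries lay below DMSO, the combination libraries lowest and most spread as deposited. LTV1, an assembly factor that leaves late, had 2.58, 0.532 and 0 FPKM with the combination from 0 to 21 estimated reads, 5.05 ± 1.10 with crenolanib, 2.44 ± 0.330 with HPA-12 and 5.73 ± 0.814 with DMSO, and did not pass with crenolanib.

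Large-subunit factors fell in 15 of 15 tested cases with HPA-12 (median -1.76), in 13 with crenolanib (median -1.27) and in 14 with the combination (median -1.84). Over all genes 23.0%, 28.9% and 56.5% fell in the same comparisons, with medians of 0.09, -0.04 and -0.62. RRS1 (ENSG00000179041), which brings the 5S particle into the large subunit, had 1.19, 4.93 and 6.45 FPKM with the combination, 8.38, 9.85 and 14.2 with crenolanib, 4.21, 4.24 and 2.64 with HPA-12 and 41.0, 39.3 and 36.1 with DMSO. All 9 treated libraries lay below DMSO, and 9 to 51 estimated reads stood behind the combination values. The changes were -3.11 ± 0.37 with the combination, -1.78 ± 0.37 with crenolanib and -3.10 ± 0.37 with HPA-12 (adjusted p = 1.15e-05, 0.00156 and 2.98e-05). MRTO4 (ENSG00000053372), which holds the place of the stalk protein P0, had 9.6, 11.3 and 10.5 FPKM with the combination, 13.3, 17.4 and 14.3 with crenolanib, 6.2, 5.87 and 5.97 with HPA-12 and 48.0, 47.5 and 46.6 with DMSO. Groups did not overlap, and the HPA-12 change was -2.79 ± 0.10, adjusted p = 2.3e-09.

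BOP1, PES1 and WDR12, the genes of the PeBoW complex that processes the large-subunit precursor, each fell at the RNA level in all 3 comparisons with DMSO. BOP1 (ENSG00000261236) had 16.3, 16.6 and 15.6 FPKM with the combination, 21.1, 20.5 and 17.8 with crenolanib, 10.7, 9.50 and 10.3 with HPA-12 and 66.7, 61.7 and 63.7 with DMSO, and crenolanib changed it by -1.65 ± 0.08, adjusted p = 2.76e-08. PES1 was at 11.0 ± 2.67, 22.3 ± 1.40, 17.9 ± 1.58 and 63.1 ± 3.60 FPKM in the combination, crenolanib, HPA-12 and DMSO groups. WDR12 was at 3.77 ± 0.962, 3.54 ± 0.321, 1.77 ± 0.268 and 8.29 ± 0.740 FPKM in the same groups. As deposited, PES1 was thus lowest with the combination and WDR12 with HPA-12. GRWD1 (ENSG00000105447), a chaperone of ribosomal protein L3 and histones, had 2.95, 3.22 and 4.60 FPKM with the combination against 33.2, 31.6 and 35.2 with DMSO and changed by -2.92 ± 0.13, adjusted p = 2.27e-09. DDX18, a helicase, had 13.1 ± 0.455 FPKM with crenolanib against 12.8 ± 0.382 with DMSO, which did not pass, and fell with HPA-12 to 6.32 ± 0.494. NOP2 was at 0.0928 to 0.337 FPKM with the combination, 0.710 to 1.59 with crenolanib, 0.484 to 0.726 with HPA-12 and 0.314 to 0.588 with DMSO.

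WDR74 (ENSG00000133316), which helps to release factors from the large-subunit precursor, was the only gene of the set that rose with the combination as deposited. It had 65.8, 82.4 and 71.7 FPKM with the combination, 64.0, 67.6 and 66.1 with crenolanib, 4.09, 4.22 and 3.87 with HPA-12 and 14.5, 14.6 and 15.2 with DMSO, so that the combination and crenolanib libraries lay far above DMSO and the HPA-12 libraries far below. It rose with the combination (2.23 ± 0.09, adjusted p = 7.86e-10) and with crenolanib (2.08 ± 0.09, adjusted p = 3.84e-09), and fell with HPA-12. In GENCODE 29 an exon of WDR74 overlaps RNU2-2P, a U2 small nuclear RNA gene on the same strand, and the labels give total RNA as the molecule. The sources used here do not give how the authors assigned reads between them, so the WDR74 level is uncertain.

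**Figure D4:**
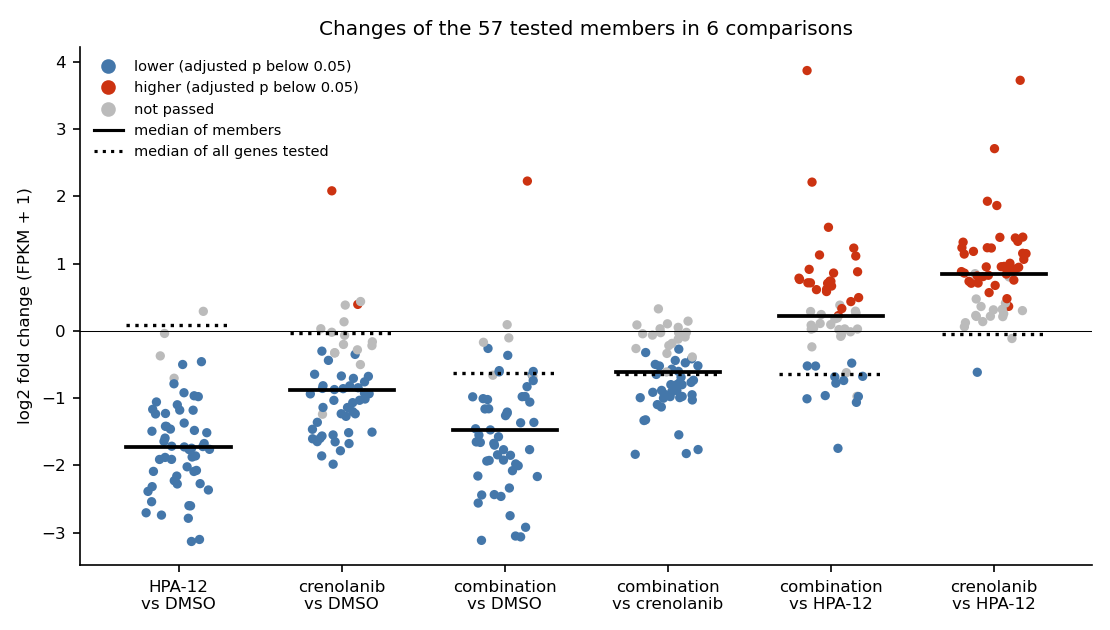
Each point is 1 of 57 tested genes, with its log2 fold change of FPKM + 1 in 6 comparisons (first-named group over the second); blue fell, red rose, grey did not pass, a solid line is the median of the set and a dotted line that of all 11149 genes. The set lies far below the all-gene median with HPA-12 against DMSO (-1.72 and 0.09) and at it for combination against crenolanib (-0.61 and -0.63), and the 3 comparisons with the combination shift upward under median-ratio scaling.

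Crenolanib against HPA-12 set the single agents directly against each other. Of 57 genes, 39 were higher with crenolanib and 1, UBTF, was lower (-0.61 ± 0.14, adjusted p = 0.00432), where 19.5% of all genes were higher and 21.6% lower, and the median was 0.85 against -0.05 over all genes. WDR74 (3.73), DDX21 (2.71) and RRP12 (1.93) differed most. NCL (1.24), NPM1 (1.14), POLR1B (0.88), RRN3 (0.76) and POLR1A (0.36, adjusted p = 0.0296) were higher with crenolanib, and FBL (0.12 ± 0.09, adjusted p = 0.306) did not pass. The POLR1A difference did not pass without any 1 crenolanib or HPA-12 library or DMSO library 3 (0.34 to 0.39), nor the RRN3 difference without crenolanib library 2 (0.71) or 3 (0.69) or HPA-12 library 1 (0.74) or 3 (0.73). In the comparisons with DMSO, 40 genes fell with all 3 treatments. A further 11 fell with HPA-12 and did not pass with crenolanib, and in 8 of these 11 the crenolanib level was higher than the HPA-12 level by the test of that difference. WDR74 and DDX21 fell with HPA-12 and rose with crenolanib. Joint counts of this kind were not made over all genes, so their background is not known. The count of 40 also rests on combination against DMSO, where 56.5% of all genes fell. Median-ratio scaling left 38 genes of the set lower in that comparison.

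Combination against HPA-12 asked what crenolanib added. More genes of the set were higher than lower in the combination, 24 against 12, where 14.5% of all genes were higher and 57.8% lower. The median was 0.23 against -0.64 over all genes, and the split depended on the scaling. Under median-ratio scaling 35 were higher and 3 lower, where 27.5% of all genes were higher and 33.3% lower. Under upper-quartile scaling 31 were higher and 5 lower, where 19.9% of all genes were higher and 46.4% lower. WDR74 (3.87), DDX21 (2.21), RRP12 (1.54) and NPM1 (1.23) were higher (adjusted p at most 4.92e-05), as were NCL (0.33) and FBL (0.23 ± 0.09, adjusted p = 0.0404), neither of which passed with weights per group (adjusted p = 0.0615 and 0.278). The FBL difference also did not pass without combination library 1 (0.18) or 2 (0.19), HPA-12 library 2 (0.17) or 3 (0.24), or DMSO library 3 (0.23). UBTF (-1.75 ± 0.14, adjusted p = 3.81e-07), GRWD1 (-1.01) and NOP14 (-0.98) were lower, by less under median-ratio scaling (-1.06, -0.41 and -0.39), where NPM1, NCL and FBL were higher by more (1.94, 1.04 and 0.94). POLR1A was lower as deposited (-0.52, adjusted p = 0.00193) but not under median-ratio (0.029) or upper-quartile scaling (-0.26, adjusted p = 0.0789) or with weights per group (adjusted p = 0.0636). POLR1B (0.09 ± 0.22, adjusted p = 0.74) and RRN3 (-0.24 ± 0.23, adjusted p = 0.378) did not pass. POLR1B was at -0.23 without combination library 2. RRN3 was at 0.42 (median-ratio) and 0.077 (upper-quartile) after rescaling, neither of which passed, and was lower without combination library 1 (-0.59, adjusted p = 0.00059).

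Combination against crenolanib asked what HPA-12 added to the FLT3 inhibitor. As deposited 38 genes were lower and 0 higher, beside 61.2% and 8.78% of all genes, and the median of -0.61 was close to that of all genes (-0.63). Under median-ratio scaling 8 were lower and 10 higher with a median of 0.02, where 26.3% of all genes were lower and 19.6% higher. Under upper-quartile scaling 23 were lower and 5 higher, where 45.4% of all genes were lower and 12.9% higher. The 66.7% of the set that was lower is near its background of 61.2%. NOP14 (-1.54 ± 0.11, adjusted p = 3.62e-07), UBTF (-1.13 ± 0.14, adjusted p = 2.35e-05), NCL (-0.90 ± 0.08, adjusted p = 2.82e-06), POLR1A (-0.89 ± 0.12, adjusted p = 4.77e-05), RRN3 (-0.99) and POLR1B (-0.80) were lower. Under median-ratio scaling these values came to -0.98, -0.48, -0.23, -0.36, -0.37 and -0.29, and those of RRN3 and POLR1B did not pass. POLR1B did not pass under upper-quartile scaling either (-0.57, adjusted p = 0.0513). LYAR (-1.83) and GAR1 (-1.82) were lower with few reads behind them, at -1.20 for LYAR without combination library 1 and -0.98 for GAR1 without combination library 3, and GAR1 did not pass under median-ratio scaling (-1.39). NPM1 (0.09 ± 0.07, adjusted p = 0.304) and FBL (0.11 ± 0.09, adjusted p = 0.315) did not pass as deposited and were higher under median-ratio scaling (0.76 and 0.78).

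The interaction tests whether HPA-12 changed a gene differently beside crenolanib than alone, as the difference between combination minus crenolanib and HPA-12 minus DMSO, which share no libraries. It was positive and passed for 38 genes and negative for 2, where 15.4% of all genes were positive and 50% negative. The median was 1.11 against -0.65 over all genes, and the split depended on the scaling. Under median-ratio scaling 48 were positive and 1 negative, where 25.4% of all genes were positive and 29.5% negative. Under upper-quartile scaling 41 were positive and 1 negative, where 18.4% of all genes were positive and 42.9% negative. For MYBBP1A HPA-12 changed the level by -3.13 alone and -0.77 beside crenolanib, a difference of 2.36 ± 0.30, adjusted p = 2.95e-05. MRTO4 (-2.79 alone, -0.47 beside crenolanib, difference 2.31 ± 0.14) and BOP1 (-2.54, -0.27 and 2.27 ± 0.12) followed the same course. NPM1 (1.58 ± 0.11), POLR1B (1.22 ± 0.31), FBL (1.16 ± 0.13), POLR1A (1.02 ± 0.17) and NCL (0.98 ± 0.12) also had positive differences that passed, and those of FBL (1.87), NCL (1.67) and POLR1A (1.55) were larger under median-ratio scaling. UBTF went the other way, with 0.29 alone and -1.13 beside crenolanib (-1.42 ± 0.20, adjusted p = 5.83e-05; -0.74, adjusted p = 0.0101, under median-ratio scaling), and WDR75 did so as deposited (-0.50 ± 0.17, adjusted p = 0.0233) but not under median-ratio scaling (0.10), nor without crenolanib library 3 (-0.45), HPA-12 library 2 (-0.48) or 3 (-0.47) or DMSO library 3 (-0.47). RRN3 did not pass (-0.62 ± 0.33, adjusted p = 0.119), was at 0.026 under median-ratio scaling, and passed without combination library 1 (-0.98, adjusted p = 0.000162).

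**Figure D5:**
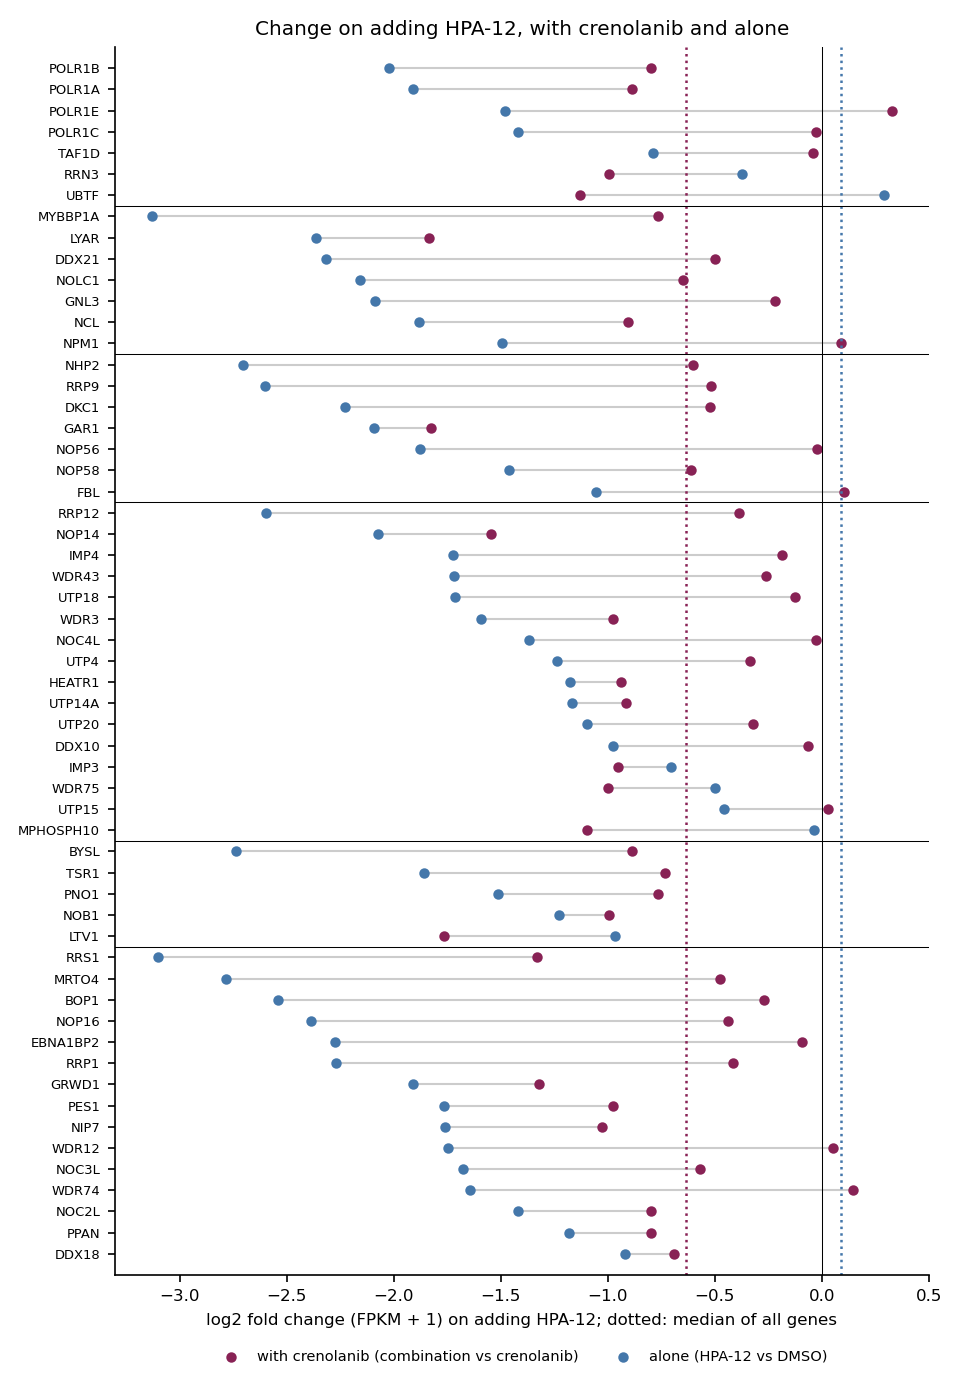
For each of 57 tested genes, grouped by role, the log2 fold change of FPKM + 1 on adding HPA-12 is shown with crenolanib (combination against crenolanib, dark red) and alone (HPA-12 against DMSO, blue), with dotted lines at the all-gene medians of -0.63 and 0.09. Most blue points lie far left of their red partners, as for MYBBP1A (-0.77 with crenolanib and -3.13 alone), while UBTF lies the other way round; the dark red points move right under median-ratio scaling.

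Across group means as deposited, DMSO was highest for 50 of the 58 genes, crenolanib for 6, HPA-12 for 1 (UBTF) and the combination for 1 (WDR74). HPA-12 had the lowest mean for 42 genes and the combination for 16. The order DMSO, crenolanib, combination, HPA-12 from high to low held for 32 genes, and the order DMSO, crenolanib, HPA-12, combination for 11. Such counts were not made over all genes. The place of the combination depends on the scaling: the set's median change against crenolanib was -0.61 as deposited and 0.02 under median-ratio scaling. MYC (ENSG00000136997), which is not in the set, had 17.5, 17.7 and 18.1 FPKM with the combination, 38.5, 33.7 and 32.3 with crenolanib, 6.62, 7.0 and 7.03 with HPA-12 and 159.8, 158 and 155 with DMSO, the order held by the 32 genes. The spread between libraries was widest in the combination, with a median coefficient of variation of 24.8% over the 58 genes, against 9.80% with crenolanib, 8.23% with HPA-12 and 4.75% with DMSO. Under 20 estimated reads in a library stood behind 9 genes in the combination and 0 in the other groups.

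Levels within the set ranged widely. The median gene had 5.97 FPKM with the combination, 10.6 with crenolanib, 5.10 with HPA-12 and 18.2 with DMSO. Above 50 FPKM stood 3 genes with the combination, 4 with crenolanib, 1 with HPA-12 and 10 with DMSO, and FBL was the highest in each group. By role, nucleolar organisers and regulators summed to 184 ± 9.21 FPKM with the combination, 259 ± 8.14 with crenolanib, 96.6 ± 5.36 with HPA-12 and 414 ± 13.6 with DMSO, and large-subunit factors to 172 ± 4.49, 224 ± 5.5, 98.5 ± 1.76 and 437 ± 13.4 FPKM in the same order of groups (SD, n = 3 each). The RNA polymerase I genes, with UBTF among them, summed to 51.4 ± 1.56 FPKM with the combination, 79.8 ± 4.86 with crenolanib, 77.3 ± 1.5 with HPA-12 and 118 ± 5.16 with DMSO. That HPA-12 was not the lowest here rests on UBTF, which made up 48.2 FPKM of the HPA-12 sum and 14.0 of the combination sum.

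Of 132 further genes listed for it, 126 were tested. With HPA-12, 78 fell and 5 rose (median -0.69), with crenolanib 61 fell and 15 rose (median -0.47), and with the combination 102 fell and 5 rose (median -1.03). Over all genes 23.0% fell and 27.7% rose with HPA-12, 28.9% and 27.4% with crenolanib, and 56.5% and 14.8% with the combination. Among snoRNP genes 8 of 9 fell with HPA-12, including the assembly helicases RUVBL1 (-2.29 ± 0.11) and RUVBL2 (-2.04 ± 0.13). Of 52 other large-subunit factors 36 fell and 1 rose, with CCDC86 (-3.24 ± 0.16) and URB1 (-1.98 ± 0.13), and of 38 other small-subunit factors 25 fell and 3 rose, with PDCD11 (-2.20 ± 0.09) and TBL3 (-1.49 ± 0.10).

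The other RNA polymerase I and SL1 genes had 5 of 13 lowered and 1 raised with HPA-12, led by POLR2L (-1.71 ± 0.15) and POLR2F (-1.28 ± 0.17), both shared among the nuclear polymerases. The RNA exosome and nucleases, which trim ribosomal precursors but serve all RNA, had 4 of 14 lowered and 0 raised (median -0.06), near the background of 23.0%, with EXOSC5 at -2.77 ± 0.13 and EXOSC2 at -1.11 ± 0.18. With crenolanib, RIOK3 (2.22 ± 0.12), an atypical kinase of small-subunit maturation, and the exosome nuclease DIS3 (0.89 ± 0.15) rose, while POLR2E (-1.02 ± 0.11), EXOSC5 (-1.73 ± 0.13), CCDC86 (-1.86 ± 0.16), URB1 (-1.35 ± 0.13), PDCD11 (-1.53 ± 0.09), RUVBL2 (-1.71 ± 0.13) and RUVBL1 (-1.61 ± 0.11) fell.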

How the data were processed

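RNA-seq of 12 libraries was read from a gene table of FPKM values as deposited by the authors, with the unit given per the file headers. No source used here names the aligner, counting method, strand or genome build. In GENCODE 29, exons of 14 genes of the set, NOP2 among them, overlap another gene on the same strand. Exons of 26 overlap a gene on the opposite strand, and 13 genes have pseudogenes named after them. Levels of all these genes, not only those remarked on above, depend on how reads were assigned. The files used give no counts, so depth was estimated from whole-read steps in low values with GENCODE 29 lengths (19852 genes matched). Only 31.0% (combination) to 39.0% (DMSO) of values worth up to 20 reads came out whole within 0.01, so the depths are rough. Genes reaching 1 FPKM in 3 or more of the 12 libraries were tested (11149) on log2(FPKM + 1), and fold changes on this scale understate changes of low genes. limma 3.58.1 in R 4.3.3 (statmod 1.5.0) was fitted with 1 factor of 4 groups, a trended and robust prior, and two-sided Benjamini-Hochberg adjustment over all genes, at 0.05. The fit was tested on simulated data.

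Genes given with fold changes were the 5 most lowered and up to 5 most raised against DMSO with a mean of at least 5 FPKM, 3 each way in the other comparisons, 7 fixed genes (NCL, NPM1, FBL, POLR1A, POLR1B, RRN3, UBTF), and for each further pathway list the 2 smallest p with each agent. Alternatives were the pseudocount, filter, scaling, samples fitted, weights per group, replicate block and leaving out libraries. The genes and lists were chosen with earlier results of these data known.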

Additional observations from a re-analysis of the deposited data

Results flagged for a closer look

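For 10 of the genes given with fold changes, the change on adding HPA-12 beside crenolanib differed from the change with HPA-12 alone by the test of that difference. Over all 11149 genes tested, 15.4% were positive and 50% negative by the same test. MYBBP1A, MRTO4, BOP1, UBTF and WDR75 were picked as the most changed genes that passed it, so their passing was fixed by the choice. On the log2 scale the first change minus the second was 2.36 for MYBBP1A, 2.31 for MRTO4, 2.27 for BOP1, 1.58 for NPM1, 1.22 for POLR1B, 1.16 for FBL, 1.02 for POLR1A and 0.98 for NCL. It was -1.42 for UBTF, -0.74 under median-ratio scaling, and -0.50 for WDR75, which turned to 0.10 under it. The lower depth and higher mitochondrial share of the combination libraries move with all 10 differences, and their part was not tested.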

How the results depend on the processing

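Gene-level results kept their direction and their side of the threshold in 2168 of the alternatives run, lost the call in 46, gained it in 26 and changed sign in 9, 5 of them with a call in at least 1 of the 2 fits. Those 5 were NPM1 in combination against DMSO (0.43 with median-ratio and 0.14 with upper-quartile scaling), and, with median-ratio scaling, RRN3 in the same comparison (0.022), POLR1A in combination against HPA-12 (0.029) and WDR75 in the interaction (0.10). With no call in either fit, RRN3 changed sign in combination against HPA-12 (0.42 with median-ratio and 0.077 with upper-quartile scaling) and in the interaction (0.026 with median-ratio scaling), and POLR1B in combination against HPA-12 (-0.23 without combination library 2).

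Genes of the set raised with HPA-12 numbered 0, and 1 with scaling without mitochondrial genes, with only the compared groups, with weights per group and without the 3 combination libraries, a setting chosen after seeing the data. Genes raised with crenolanib numbered 2, and 4 with those last 3 settings. Over all genes 29.7%, 43.2%, 43.2% and 40.7% rose with HPA-12 in the settings named for it, and 27.7% in the main fit. With crenolanib 36.1%, 36.6% and 37% of all genes rose in those last 3 settings, and 27.4% in the main fit. Shares over all genes under the 2 scalings that follow are given with each comparison above. With median-ratio and upper-quartile scaling, genes raised with the combination numbered 4 and 3 (1 as deposited), those lower than with crenolanib 8 and 23 (38), those higher than with crenolanib 10 and 5 (0), those lower than with HPA-12 3 and 5 (12), and those negative in the interaction 1 and 1 (2). Leaving out 1 library at a time gave 0 to 1 raised with HPA-12, 2 to 3 raised with crenolanib, 0 to 1 higher in the combination than with crenolanib, and 1 to 4 negative in the interaction. The other counts stayed within 1.5 times. At an unadjusted p under 0.05, limma as fitted also gave 0 genes raised with HPA-12 and 0 higher in the combination than with crenolanib.

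Same-numbered libraries deviated together little if at all (correlations -0.03 to 0.07, 0 of 18 over 0.1). Such values cannot tell whether the libraries were made in numbered sets. With a replicate block, 51 genes fell with the combination, 39 with crenolanib and 53 with HPA-12. Over all genes 56.4%, 28.4% and 22.6% fell in the same comparisons under that setting. Depth limits the combination group, where 9 genes had under 20 estimated reads in a library. The SDs cover the spread of 3 libraries only. The SEs of fold changes came from a variance pooled over all groups, so a gene has the same SE against DMSO with each treatment. Weights per group were 0.143 for the combination, 1.09 for crenolanib, 2.05 for HPA-12 and 3.13 for DMSO, where a lower weight means more spread. Pooled SEs thus understate the spread of the combination libraries and overstate that of HPA-12 and DMSO.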
